A study of Mus musculus with 6 samples.

Results

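Open chromatin was examined at the 8 genes that encode the hemidesmosome and its laminin ligand, namely Itga6, Itgb4, Itga3, Col17a1, Lama3, Lamb3, Dst and Plec, which were chosen by name from 21911 protein-coding gene symbols of the GENCODE M21 annotation. For each gene, peaks were taken whose midpoint lay in the gene or within 100 kb of its start site, the 5′ end of the gene record, in the mm10 mouse genome. This stretch is called the gene window below. Genes that averaged less than 1 peak per library were left out of the tests, which kept all 8 members and 21723 genes in all.

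The data are ATAC-seq peak lists of palatal shelves of C57BL/6 mouse embryos at E14.5. In ATAC-seq a transposase cuts open DNA and tags it for sequencing, and a peak is a stretch where such fragments pile up. There were 3 epithelium libraries, in which the basal layer and the periderm (the flat outermost cell layer) were both taken, and 3 mesenchyme libraries made from the tissue left once the epithelium had been peeled off after trypsin. The shelves were digested before peeling, so both tissues went through it, and no genotype or treatment separated them. Each library pooled tissue of several embryos, on whose number the sources differ, and the remaining tissue was largely but not purely mesenchyme. The epithelium lists held 270003, 349322 and 296695 peaks and the mesenchyme lists 295141, 341741 and 315468, so list length overlapped between the tissues. The lists give position only, with no height or score. A missing peak is therefore a peak not called, which is not the same as closed chromatin, and in such bulk samples fewer cells of one type and fewer open copies per cell cannot be told apart.

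Hemidesmosomes are the rivet-like junctions by which basal keratinocytes hold to the basement membrane. Integrin α6β4, encoded by Itga6 and Itgb4, is the receptor that spans the plasma membrane together with the type XVII collagen Col17a1. Inside the cell the plakins encoded by Dst and Plec tie the receptor to keratin filaments, and outside the receptor binds a laminin that holds the chains of Lama3 and Lamb3. Integrin α3β1, whose α chain is Itga3, binds the same laminin in focal contacts. Human mutations in most of these genes cause junctional or simplex forms of epidermolysis bullosa, in which the skin blisters. Dst, Lama3 and Plec have alternative promoters, and the short dystonin of epithelia is made from an internal one.

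The tissue labels were set against marker genes, using the length of DNA covered by peaks in each gene window. Of 8 epithelium markers, 7 were higher in epithelium past an adjusted p of 0.05 (limma on all genes) and none was lower, with Trp63, the regulator of stratified epithelia, at a log2 difference of 2.40 ± 0.34 (SE). Of 8 mesenchyme markers, 2 were lower in epithelium, Prrx1 at -1.03 ± 0.18 and Col1a1 at -0.30 ± 0.08, and none was higher. Over all genes tested, 6.09% were higher and 7.47% lower. The marker values were scaled to the library total, and none scaled within the chromosome is given. No marker of endothelium (6 genes), muscle (5 genes) or nerve and glia (5 genes) passed, although the nerve and glia list had a median log2 difference of 0.40. Of 5 blood and immune markers 1 was higher and 1 lower. By number of peaks at the same threshold, 2 epithelium markers were higher, 1 mesenchyme marker was lower, and no other marker passed. The part of other cell types in the results below was not tested.

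The clearest tissue difference lay at 2 of the annotated start sites. The 8 genes have 23 coding start sites when starts within 500 bp are pooled. At 2 of them, the only start of Col17a1 and the most 3′ start of Dst, a peak was called in every epithelium list and in no mesenchyme list. This pattern was met at 8.70% of the members' starts, against 0.439% of all 28711 coding starts of the genome. A further 16 member starts (69.6%) had a peak in all 6 libraries, where the genome share was 53.2%, and 1 start (4.35%) had none, where the genome share was 27.9%. Members share no start, but starts of 1 gene lie on the same stretch of DNA, and a single start cannot pass a test with 3 against 3 libraries, for which the smallest exact permutation p is 0.1. With a peak anywhere within 500 bp in place of a peak over the start itself, Dst kept the pattern and Col17a1 lost it.

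**Figure D1:**
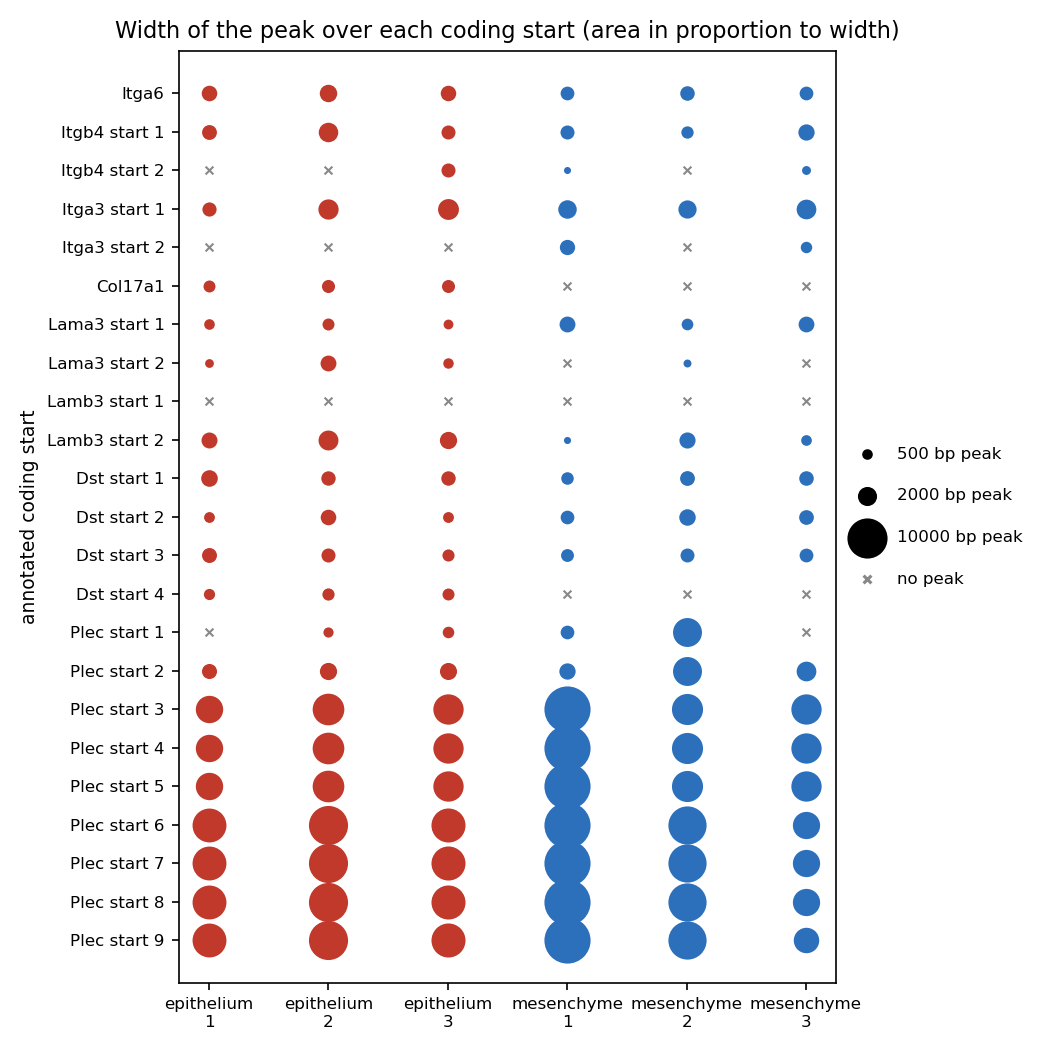
Each row is an annotated coding start of a member gene, numbered from the 5′ end, and each column a library; the area of a circle is in proportion to the width of the peak over the start in bp, and a cross marks no peak. Col17a1 and Dst start 4 have circles in the 3 epithelium libraries and crosses in the 3 mesenchyme libraries, and Lama3 start 2 has 1 mesenchyme circle, of 436 bp.

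Dst encodes dystonin, the plakin also known as bullous pemphigoid antigen 1. Its gene record runs over 400.4 kb of the plus strand of chromosome 1, from 33908225 to 34308661. The start at 34160330 lies 252.1 kb into the gene and begins transcripts Dst-213 and Dst-215, of which one spans 148.1 kb and the other 23.6 kb. Epithelium libraries had a peak of 871, 1032 and 992 bp over this start, and no mesenchyme library had a peak there or within 500 bp. The 3 upstream starts of Dst, at 33908225, 34005882 and 34011813, had a peak in all 6 libraries. At the most upstream of them the peak was 1913, 1431 and 1437 bp wide in epithelium and 1084, 1515 and 1463 bp in mesenchyme, so the widths overlapped. That peak also lay over the start of Bend6, which is 409 bp away and is named here after its values were seen, so it is not a measure of Dst alone. The most 3′ start of Dst thus stood apart from the upstream ones within the same libraries.

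The DNA of the epithelium-only region over the most 3′ start is shown because, of the members' epithelium-only regions, its narrowest epithelium peak was the widest, 871 bp. The mesenchyme-only region of Dst, 310.9 kb into the gene, is given beside it. The central 200 bp of each are printed 5′ to 3′ along the gene, and in all sequences here capitals mark matches to the motifs searched, so that an all lower-case sequence holds none of them.
Dst epithelium-only region, chr1:34159944-34160143, plus strand: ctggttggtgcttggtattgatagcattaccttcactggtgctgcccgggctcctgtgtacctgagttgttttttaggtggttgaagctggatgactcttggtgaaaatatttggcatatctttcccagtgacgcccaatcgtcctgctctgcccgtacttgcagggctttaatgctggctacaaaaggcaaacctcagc
Dst mesenchyme-only region, chr1:34219043-34219242, plus strand: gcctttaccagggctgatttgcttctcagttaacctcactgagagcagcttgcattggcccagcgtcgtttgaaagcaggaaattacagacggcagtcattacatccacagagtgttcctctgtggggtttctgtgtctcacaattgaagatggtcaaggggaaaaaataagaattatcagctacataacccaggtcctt

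Dst also held the most epithelium-only regions of the 8 genes. Overlapping peaks of the 6 lists were merged into regions, of which those seen in 2 or more lists were kept. The term epithelium-only is used for a region found in the 3 epithelium lists and in none of the mesenchyme lists, and mesenchyme-only for the reverse. Dst had 7 epithelium-only regions and 1 mesenchyme-only region among 87 kept regions, all in the gene itself. These were 8.05% and 1.15% of its kept regions, against 2.98% and 2.20% over the genome. By count, 99.5% of all genes had fewer epithelium-only regions, but the Dst window of 500.4 kb is also longer than that of the other members. The widest as a merged region was at chr1:33962782-33964223, in an intron, with epithelium peaks of 326, 987 and 613 bp. Another, at chr1:34051234-34052572, lay in an intron 40.1 kb downstream of the nearest coding start, with peaks of 831, 1123 and 1085 bp in epithelium. One more lay 9.36 kb upstream of the most 3′ start and 1 lay in an exon 30.7 kb downstream of it. A region at chr1:34073273-34075157, open in all 6 libraries, was 1689, 1805 and 1528 bp wide in epithelium and 554, 453 and 551 bp in mesenchyme, the lowest p of any member region in the test of widths described further on.

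Over the whole Dst window, epithelium libraries had 67, 98 and 82 peaks and mesenchyme libraries 64, 84 and 52. After scaling to the mean list length these were 77.3, 87.4 and 86.1 against 67.5, 76.5 and 51.3, with no overlap between the tissues. The log2 difference of 0.37 ± 0.13 (SE) did not pass (adjusted p = 0.0933, limma). The scaled length covered by peaks was 35.2, 36.9 and 35.1 kb in epithelium and 25.5, 29.0 and 21.2 kb in mesenchyme, with a mean of 35.8 ± 1.03 kb for epithelium and 25.2 ± 3.92 kb for mesenchyme (SD, n = 3 each). Dst was higher in epithelium on this measure, by a log2 difference of 0.51 ± 0.13 (adjusted p = 0.00769, limma). Without mesenchyme replicate 3, the library with the fewest peaks at Dst, the difference was 0.39 and the adjusted p 0.0561.

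Plec, the gene of plectin, the other plakin of the hemidesmosome, showed no such split. It lies on the minus strand of chromosome 15 from 76170974 to 76232574 and has 9 pooled coding starts. Of these, 8 had a peak in all 6 libraries. At the most upstream one epithelium libraries 2 and 3 and mesenchyme libraries 1 and 2 had a peak. Most of the gene was covered, since a single merged region of 41866 bp held peaks of 34498 to 37316 bp in epithelium and of 36918 to 38210 bp in mesenchyme. The start sites under such wide peaks are therefore not separate observations. Plec had no tissue-only region among 44 kept. Its scaled covered length was 72.2 to 82.9 kb in epithelium and 73.9 to 78.5 kb in mesenchyme, with overlapping groups and a log2 difference of 0.00 ± 0.08 (adjusted p = 0.979, limma).

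Col17a1 encodes a transmembrane collagen that is also a bullous pemphigoid antigen. Its start at 47692094, on the minus strand of chromosome 19, lay under peaks of 991, 1181 and 1173 bp in the epithelium libraries and under none in the mesenchyme libraries. Mesenchyme replicate 1 had a peak of 338 bp within 500 bp of the start, inside the same merged region, chr19:47691315-47692511, so that the region counted as shared. Upstream of the gene lay 2 epithelium-only regions, at 15.9 kb (chr19:47707659-47708401; peaks of 512, 743 and 435 bp) and at 31.0 kb (chr19:47722761-47723426; peaks of 336, 248 and 666 bp). The more distant one is nearer to the start of Sfr1. Col17a1 had no mesenchyme-only region among 43 kept.

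The promoter of Col17a1, in the RefSeq sequence of GRCm38.p6, is shown with the centre of the epithelium-only region 15.9 kb upstream, since both held epithelium peaks with few or none in mesenchyme. Both contain a match to the KLF motif and to a single unit of the p53-family consensus, of which a full site has a pair.
Col17a1 promoter, chr19:47691993-47692292, minus strand: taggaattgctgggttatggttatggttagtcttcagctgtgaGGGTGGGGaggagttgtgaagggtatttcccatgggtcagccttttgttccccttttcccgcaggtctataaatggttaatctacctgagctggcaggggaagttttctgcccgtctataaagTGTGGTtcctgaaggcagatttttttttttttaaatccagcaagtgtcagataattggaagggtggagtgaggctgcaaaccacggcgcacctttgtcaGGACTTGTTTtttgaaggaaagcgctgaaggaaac
Col17a1 epithelium-only region, chr19:47707930-47708129, minus strand: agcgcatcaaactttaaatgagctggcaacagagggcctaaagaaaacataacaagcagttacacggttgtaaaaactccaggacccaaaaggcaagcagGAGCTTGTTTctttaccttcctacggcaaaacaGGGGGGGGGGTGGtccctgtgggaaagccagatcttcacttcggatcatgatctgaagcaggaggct

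Over the window as a whole the tissues were not separated. Epithelium libraries had 30, 56 and 49 peaks at Col17a1 and mesenchyme libraries 40, 44 and 37. The scaled covered length was 18.8, 24.1 and 28.3 kb in epithelium and 21.8, 19.3 and 19.9 kb in mesenchyme. Epithelium replicate 1 lay below every mesenchyme library, and the log2 difference of 0.20 ± 0.14 did not pass (adjusted p = 0.376, limma). Much of the covered length lay in the 3′ part of the gene, where the widest region, of 8865 bp, held peaks of 4610 to 7239 bp in epithelium and of 5190 to 5870 bp in mesenchyme.

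Itga6 encodes the α6 chain of the laminin receptor. In the GENCODE basic set its coding transcripts start at 71786940 on the plus strand of chromosome 2, 41.3 kb inside the gene record, which begins at 71745616 with a longer non-coding form. All 6 libraries had a peak over the coding start, 1672, 2105 and 1663 bp wide in epithelium and 1308, 1458 and 1305 bp wide in mesenchyme, with no overlap of the groups. These widths are unscaled, and the share of all coding starts with such a split was not counted. No region passed the test of widths described further on. A pair of epithelium-only regions lay next to each other, 7.75 kb and 6.82 kb upstream of the gene record. Their peaks were 234, 448 and 283 bp wide in the first, chr2:71737619-71738116, and 799, 666 and 688 bp in the second, chr2:71738337-71739261. A mesenchyme-only region lay 46.4 kb upstream, with peaks of 391, 328 and 500 bp. The centre of the wider epithelium-only region is printed with that of the mesenchyme-only one, which holds an AP-1 match.
Itga6 epithelium-only region, chr2:71738699-71738898, plus strand: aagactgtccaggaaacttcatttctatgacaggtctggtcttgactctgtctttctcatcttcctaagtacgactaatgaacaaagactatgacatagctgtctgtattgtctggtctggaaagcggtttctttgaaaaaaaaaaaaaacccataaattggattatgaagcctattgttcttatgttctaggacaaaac
Itga6 mesenchyme-only region, chr2:71699089-71699288, plus strand: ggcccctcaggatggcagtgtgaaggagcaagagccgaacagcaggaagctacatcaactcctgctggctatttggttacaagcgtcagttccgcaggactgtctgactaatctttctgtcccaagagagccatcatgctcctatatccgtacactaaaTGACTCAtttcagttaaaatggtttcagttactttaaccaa

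Epithelium libraries had 35, 43 and 38 peaks in the Itga6 window and mesenchyme libraries 36, 36 and 34, a log2 difference of 0.18 ± 0.16 that did not pass (adjusted p = 0.584, limma). The scaled covered length was 19.8, 18.9 and 17.7 kb in epithelium and 15.5, 13.1 and 12.1 kb in mesenchyme, so the tissues did not overlap. Itga6 was higher in epithelium on this measure, by a log2 difference of 0.47 ± 0.15 (adjusted p = 0.0312, limma). The call was lost without epithelium replicate 1 (adjusted p = 0.0953), epithelium replicate 2 (0.0912), mesenchyme replicate 2 (0.0834) or mesenchyme replicate 3 (0.119). The window of Itga6 holds no other coding start.

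Itgb4, the partner chain, and Itga3, the α chain of the other laminin receptor, went the opposite way in covered length without passing the test. Both lie on chromosome 11, Itgb4 at 115974709 to 116008412 on the plus strand and Itga3 at 95044474 to 95076801 on the minus strand, and both have coding starts of other genes in their windows, 7 for Itgb4 and 5 for Itga3. The scaled covered length at Itgb4 was 79.3, 76.3 and 78.6 kb in epithelium and 88.7, 85.8 and 95.6 kb in mesenchyme, a log2 difference of -0.20 ± 0.08 (adjusted p = 0.0700, limma). At Itga3 it was 88.5, 84.4 and 90.2 kb in epithelium and 100.8, 96.2 and 94.3 kb in mesenchyme, a log2 difference of -0.15 ± 0.07 (adjusted p = 0.169, limma). Every epithelium library lay below every mesenchyme library at both genes. Chromosome 11 as a whole held 7.04%, 7.01% and 7.07% of the peaks of the epithelium libraries and 7.59%, 7.87% and 7.84% of those of the mesenchyme libraries. With covered length scaled within the chromosome, the log2 difference was -0.0038 at Itgb4 and 0.05 at Itga3.

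The main starts of both genes were open in all 6 libraries. At the Itgb4 start the peak was 1530, 2631 and 1358 bp wide in epithelium and 1363, 1048 and 1836 bp in mesenchyme, and at the Itga3 start 1391, 2826 and 3011 bp in epithelium and 2365, 2294 and 2682 bp in mesenchyme, with overlap at both. A short transcript of Itga3 that starts 7.6 kb downstream had no epithelium peak over its start and a peak in mesenchyme replicates 1 and 3, but all 6 libraries had a peak within 500 bp of it. Neither gene had an epithelium-only region. The windows were rich in shared regions, with 32 of 83 kept regions (38.6%) at Itgb4 and 45 of 84 (53.6%) at Itga3 open in all 6 libraries, against 19.1% of all kept regions. The mesenchyme-only region in the Itgb4 window lies in Recql5, nearest to the start of Smim6, and its peaks were 282, 199 and 234 bp wide. Its centre is printed because it is the only tissue-only region at either gene.
Itgb4 mesenchyme-only region, chr11:115919707-115919906, plus strand: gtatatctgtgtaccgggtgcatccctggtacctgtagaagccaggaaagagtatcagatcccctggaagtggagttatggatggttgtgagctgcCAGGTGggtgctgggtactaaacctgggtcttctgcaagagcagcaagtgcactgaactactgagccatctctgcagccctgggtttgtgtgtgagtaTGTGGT

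Lama3 encodes the α3 chain of the laminin that the receptors bind. The gene has a long and a short form, Lama3-201, which starts at 12333819 on the plus strand of chromosome 18, and Lama3-202, which starts 170.4 kb further on at 12504199. The long-form start lay under a peak in all 6 libraries, 783, 992 and 667 bp wide in epithelium and 1744, 944 and 1727 bp in mesenchyme. The short-form start lay under a peak in all 3 epithelium libraries, 533, 1739 and 757 bp wide, and in mesenchyme replicate 2 alone, 436 bp wide. Within 500 bp of it, mesenchyme replicates 2 and 3 had a peak, so the tissues were less apart there than at the most 3′ start of Dst. In the intron that follows were 3 epithelium-only regions in a row, 1355, 2388 and 3198 bp downstream of the short-form start. Their peaks were 529, 623 and 460 bp, 258, 484 and 374 bp, and 382, 550 and 337 bp wide.

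Lama3 had 5 epithelium-only and 4 mesenchyme-only regions among 74 kept. These were 6.76% and 5.41% of its kept regions, against 2.98% and 2.20% over the genome. By count, 98.4% of genes had fewer of the first kind and 96.3% fewer of the second. The Lama3 window of 349.2 kb is, however, longer than that of any other member except Dst. The other epithelium-only regions lay 78.2 and 71.5 kb upstream, inside Ankrd29 and nearest to the start of Npc1. Of the mesenchyme-only regions, 2 lay upstream in Ankrd29 and 2 in introns of Lama3. The scaled covered length was 25.4, 25.3 and 26.9 kb in epithelium and 20.3, 23.8 and 25.1 kb in mesenchyme. The groups did not overlap by a narrow margin, and the log2 difference of 0.17 ± 0.13 did not pass (adjusted p = 0.405, limma).

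Lamb3 encodes the β3 chain. Its usual coding start is at 193301993 on the plus strand of chromosome 1, and the gene record begins 94.3 kb upstream with a single transcript, Lamb3-209, over whose start no library had a peak. Within 500 bp of that upstream start, 3 epithelium and 2 mesenchyme libraries had a peak. At the usual start all 6 libraries had a peak, 1768, 2741 and 2059 bp wide in epithelium and 349, 1800 and 792 bp in mesenchyme. Epithelium replicate 1 there fell just below mesenchyme replicate 2. The epithelium-only region of Lamb3 lay in an intron 16.6 kb downstream of this start, at chr1:193318577-193319164, with peaks of 199, 367 and 327 bp. The lists' smallest peak width was 199 bp. Another 2 regions, mesenchyme-only, lay inside Diexf, 94.1 and 89.3 kb upstream of the gene record. The centres of the intronic region and of the wider mesenchyme-only region are printed, and neither holds a motif match.
Lamb3 epithelium-only region, chr1:193318770-193318969, plus strand: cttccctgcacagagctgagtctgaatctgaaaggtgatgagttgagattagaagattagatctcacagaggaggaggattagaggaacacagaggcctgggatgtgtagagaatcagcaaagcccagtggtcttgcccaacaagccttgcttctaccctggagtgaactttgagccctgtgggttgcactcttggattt
Lamb3 mesenchyme-only region, chr1:193118281-193118480, plus strand: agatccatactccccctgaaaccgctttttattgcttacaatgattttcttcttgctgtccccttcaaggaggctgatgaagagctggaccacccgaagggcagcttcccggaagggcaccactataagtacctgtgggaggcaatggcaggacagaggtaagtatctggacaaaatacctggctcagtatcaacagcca

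In the Lamb3 window epithelium libraries had 56, 82 and 65 peaks and mesenchyme libraries 67, 74 and 64, a log2 difference of 0.03 ± 0.12 (adjusted p = 0.921, limma). The scaled covered length was 36.1, 39.6 and 37.5 kb in epithelium and 32.6, 31.7 and 29.7 kb in mesenchyme, without overlap. The log2 difference of 0.27 ± 0.11 did not pass (adjusted p = 0.105, limma). The Lamb3 window holds 6 coding starts of other genes and the Plec window 7. Those of Lama3 and Dst hold 2 each, and that of Col17a1 holds 1.

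**Figure D2:**
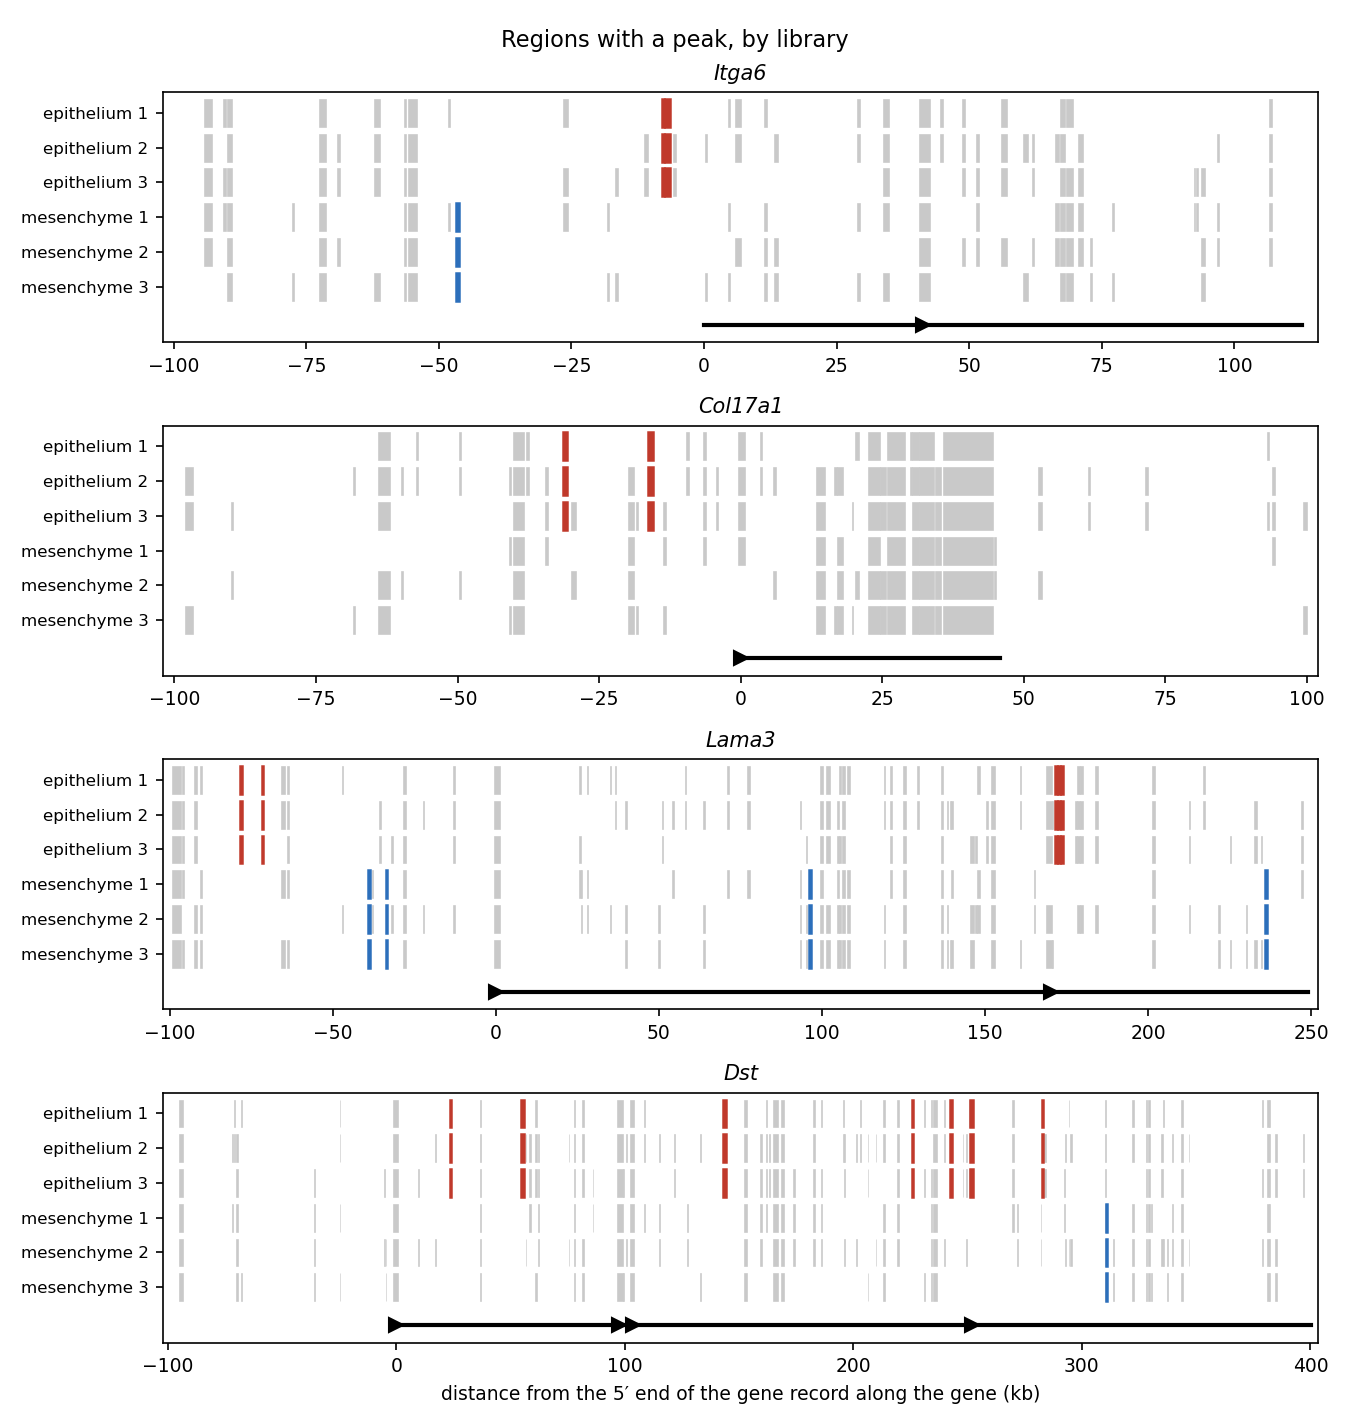
Each panel shows a gene window by distance in kb from the 5′ end of the gene record, with the 3 epithelium libraries above the 3 mesenchyme libraries; bars are merged regions in which that library had a peak, red where epithelium-only, blue where mesenchyme-only and grey otherwise, drawn to scale with a thin outline, and the black line is the gene with arrowheads at coding starts. Red bars stand over the most 3′ start of Dst and just after the second start of Lama3, and upstream of Itga6 and Col17a1.

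Across the 8 genes, 539 regions were kept, of which 17 were epithelium-only (3.15%), 9 mesenchyme-only (1.67%), 150 open in all 6 libraries (27.8%) and 363 mixed. Of all 342690 kept regions in the genome 2.98% were epithelium-only and 2.20% mesenchyme-only, so the members' shares lay close to the background. Dst, Lama3, Itga6 and Col17a1 held all but 1 of the 17 epithelium-only regions. Lamb3 held the remaining one, and Itgb4, Itga3 and Plec held none. Counted with at least 2 libraries of a tissue and none of the other, the members had 56 epithelium and 49 mesenchyme regions, or 10.4% and 9.09%, against 10.5% and 11.4% of all kept regions. The counts also moved with single libraries. Without mesenchyme replicate 1 they were 24 and 25, or 4.63% and 4.83%, against 4.15% and 6.50% of all kept regions.

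By the number of peaks, none of the 8 genes passed the test, while 1.49% of all genes were higher and 1.65% lower in epithelium. At an unadjusted p under 0.05 only Dst was past the threshold, and the share of all genes past it is not given here. By covered length 2 of the 8, Dst and Itga6, were higher and none was lower, with 6.09% of all genes higher and 7.47% lower. The median log2 difference was 0.09 for peaks and 0.18 for covered length over the members, against -0.02 and -0.01 over all genes tested. In scaled covered length, the lowest epithelium value exceeded the highest mesenchyme value at Itga6, Lama3, Lamb3 and Dst, a pattern met at 15.0% of all genes. The reverse held at Itgb4 and Itga3 and at 17.4% of all genes. In scaled number of peaks, Itga6 and Dst were above without overlap, as were 9.09% of all genes, and no member was below, as were 13.0% of all genes.

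**Figure D3:**
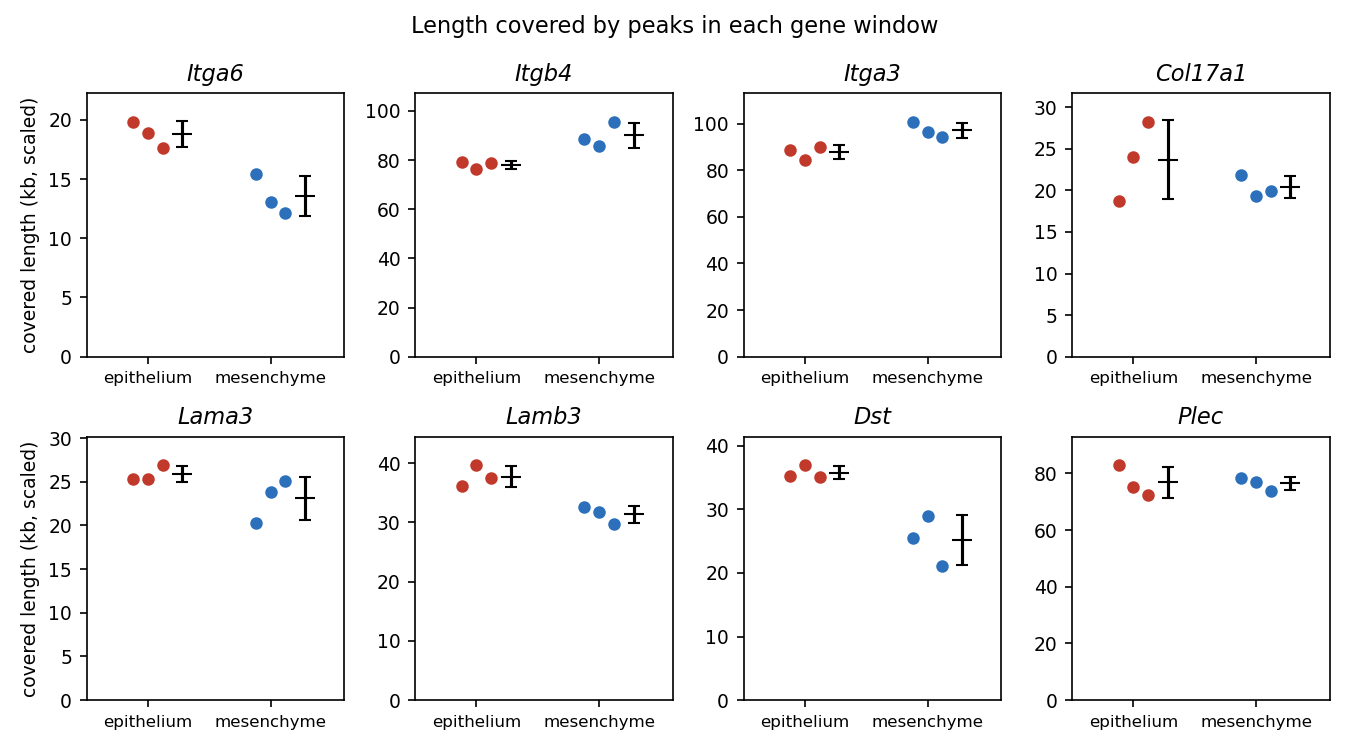
For each gene the length covered by peaks in its window is plotted in kb, scaled to the mean library total, with the 3 epithelium libraries in red left of the 3 mesenchyme libraries in blue and the mean ± SD in black (n = 3 each). Dst has 35.1 to 36.9 kb in epithelium and 21.2 to 29.0 kb in mesenchyme, and Plec overlaps.

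**Figure D4:**
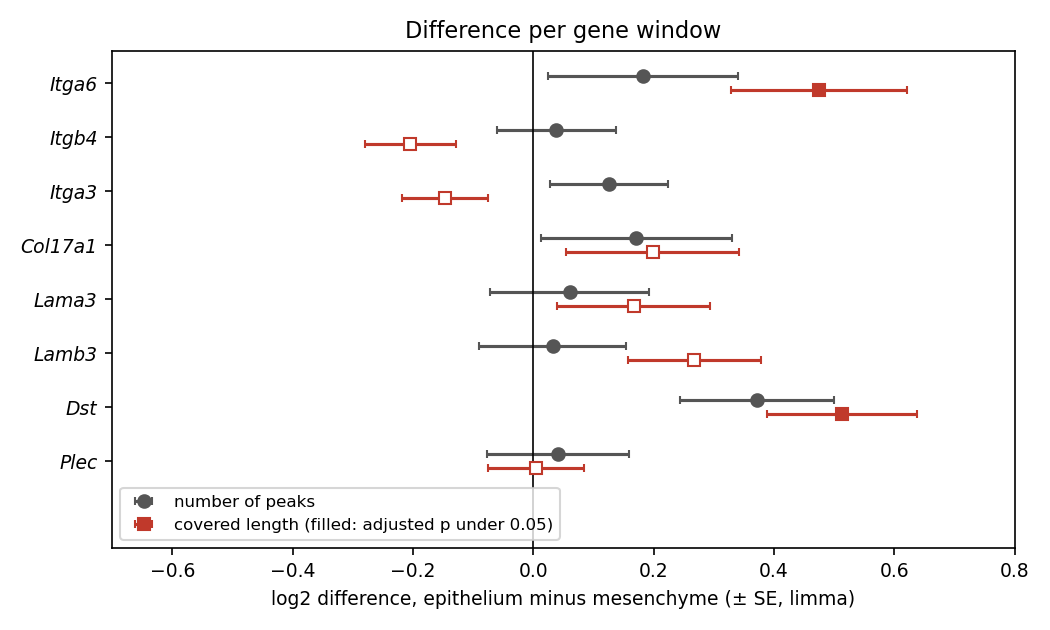
Points are log2 differences of epithelium minus mesenchyme with their SE from limma, for the number of peaks (grey circles) and for covered length (red squares, filled where the adjusted p over all genes is under 0.05) in each gene window. Only the covered length of Itga6 (0.47) and Dst (0.51) is filled, and Itgb4 and Itga3 lie below 0.

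The width of peaks was compared in the 65554 regions open in all 6 libraries, 150 of them in the members' windows. No region passed in either direction (0% wider and 0% narrower in epithelium at an adjusted p under 0.05, limma, with 3844 wider and 3674 narrower at an unadjusted p under 0.05). Of the members' regions, 12 were wider and 10 narrower in epithelium at an unadjusted p under 0.05, and the lowest adjusted p was 0.12. That lowest value belonged to the Dst region at 34073273 described above, with a log2 difference of 1.80 ± 0.24. The start regions of Lamb3 (0.56 ± 0.15), Itgb4 (0.48 ± 0.19) and Itga6 (0.43 ± 0.15) were among the 12. The 10 narrower ones were 4 in the window of Itga3, 3 in that of Itgb4 and 1 each in those of Itga6, Dst and Plec. The Itgb4 intron region at chr11:115988170-115994005, for one, was 2717, 3504 and 2172 bp wide in epithelium and 4858, 4762 and 4982 bp in mesenchyme, a log2 difference of -0.72 ± 0.15. The median log2 difference was -0.02 over the members' regions and 0.03 over all regions.

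Related genes were taken from lists of partners and families. Over all genes tested, 6.09% were higher and 7.47% lower in covered length, and 1.49% and 1.65% in number of peaks. Krt5 (0.42 ± 0.13) and Krt14 (0.33 ± 0.11), the keratins of the filaments that dystonin and plectin hold, were higher in epithelium in covered length, and both are also in the epithelium marker list. Cd151, the tetraspanin that accompanies the laminin-binding integrins, had -0.12 ± 0.08 and did not pass (adjusted p = 0.361, limma). By number of peaks none of these 3 genes passed in either direction.

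Among 5 other plakins, Dsp, the desmoplakin of desmosomes, was higher in both measures. It had 42, 53 and 33 peaks in epithelium and 23, 29 and 29 in mesenchyme, a log2 difference of 0.68 ± 0.17 in peaks (adjusted p = 0.0164) and of 1.10 ± 0.16 in covered length (adjusted p = 0.000128, limma). Evpl, the envoplakin of the cornified envelope, was lower in covered length, by -0.28 ± 0.08. As for all related genes, no value scaled within the chromosome is given for it. Of 8 other laminin chains none was higher, and Lamc3 was lower in covered length (-0.23 ± 0.08). Of 11 other basement membrane genes, Col4a6 was higher in covered length (0.95 ± 0.29), and the type IV collagens Col4a1 (-0.48 ± 0.11) and Col4a2 (-0.42 ± 0.10) and the perlecan gene Hspg2 (-0.24 ± 0.08) were lower. Col4a1 was also lower in peaks (-0.38 ± 0.11). Of 10 other integrins and adaptors, the collagen receptor chain Itga2 was higher in covered length (0.62 ± 0.20), and Itgb3, a chain of vitronectin and fibrinogen receptors, was lower in both measures, with 23, 31 and 31 peaks in epithelium and 47, 59 and 54 in mesenchyme.

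The central 200 bp of the tissue-only regions of the members were searched on both strands for 9 motifs. These were AACCNGTT of the GRHL factors, TGA, any base and TCA of AP-1, GCCNNNGGC of TFAP2, GGAATG of TEAD and CCNCNCCC of KLF. The others were CAGGTG of the E-box, TGTGGT of RUNX, TAATTA of homeobox factors and the p53-family motif, and matches may overlap. The p53-family motif means here a single unit of its usual consensus, of which a full site has a pair. Of the 17 epithelium-only regions of the members, KLF was matched in 3, TEAD, RUNX and the p53-family motif in 2 each, GRHL, AP-1 and the E-box in 1 each, and TFAP2 and homeobox in none. Over all kept regions KLF was matched in 26.1%, TEAD in 11.5%, RUNX in 16.1%, the p53-family motif in 7.18%, GRHL in 1.55%, AP-1 in 6.18%, the E-box in 20.1%, TFAP2 in 8.0% and homeobox in 2.14%. Over all epithelium-only regions of the genome, KLF was matched in 18.2%, TEAD in 19.45%, RUNX in 15.4% and the p53-family motif in 10.6%. There GRHL was matched in 3.8%, AP-1 in 12.45%, the E-box in 22.2%, TFAP2 in 5% and homeobox in 4.03%. The GRHL match of the members was in the Lama3 region 3198 bp downstream of the short-form start. Of the 9 mesenchyme-only regions, AP-1 and RUNX were each matched in 3, TEAD in 2 and the E-box in 1. Over all mesenchyme-only regions of the genome, AP-1 was matched in 7.78%, RUNX in 24.4%, TEAD in 12.0% and the E-box in 13.3%. In RefSeq promoters of all genes, 49.5% held the KLF motif and 8.36% the p53-family motif, both found at Col17a1. The 2 RefSeq promoters of Dst, one of them at its most 3′ start, each held an E-box and no other match. Of the 8 genes, 4 had a promoter in the table.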

How the data were processed

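The methods and the notes of the submitters say that the authors used Trimmomatic 0.38 for trimming, Bowtie2 for alignment to mm10 and SAMtools to drop duplicates. Short, nucleosome-free fragments went into MACS2 2.1.1, one list per library, at a threshold not given in the sources used here. The deposited lists hold chromosome, start and end only, so the reads behind a peak and the depth are unknown, and the study's own test of read counts could not be used.

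Peaks on chromosomes 1 to 19, X and Y were used as listed. The number of peaks and the covered length per gene window were scaled to the mean library total and tested over 21723 genes as log2(peaks + 1) and log2(base pairs + 100) with limma 3.58.1 in R 4.3.3 (mean trend, no replicate block), with Benjamini-Hochberg adjustment and a threshold of 0.05. These log2 differences understate the change of low genes. Libraries are separate samples by the labels, and p-values measure the spread between them. Regions were merged from peaks overlapping by at least 1 bp. The fits were tested on simulated data. Alternatives are given in the closing section. Sequence came from GRCm38.p6, the assembly behind mm10, and starts from GENCODE M21.

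All 8 members and Cd151, Krt5 and Krt14 are named whatever their values, other related genes only where past the test, and neighbouring genes where a tissue-only region is nearest to their start. Some partner and neighbouring genes are not reported here. The members and the lists were chosen with earlier results of these data known.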

Additional observations from a re-analysis of the deposited data

How the results depend on the processing

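The tissue-only regions and the start peaks are descriptions of presence calls. The lists carry no score, so width was the only way to set a stricter threshold. The depth in reads is unknown, and a weak peak missed in a shorter list cannot be told apart from an absent one.

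Dst stayed higher in covered length past the threshold in 10 of 14 alternatives and Itga6 in 5 of 14, and both log2 differences stayed above 0 in all of them (0.39 to 0.62 for Dst, 0.29 to 0.58 for Itga6). No member passed without scaling (adjusted p = 0.234 for Dst and 0.332 for Itga6, limma), with no filter on low genes (0.0536 and 0.0667, limma) or in the gene body plus 5 kb (0.0513 and 0.415, limma), so that 0 members were then higher. In the gene body plus 50 kb, 1 member was higher, Dst (0.0119, limma). With the window set around the start of most coding transcripts, an alternative chosen after seeing the data, 1 member was higher in covered length, Dst (0.00382), and 1 in number of peaks, again Dst (0.0399, limma). Leaving out a library gave 0 to 2 members higher in covered length.

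Over all genes, the counts higher and lower in number of peaks, 323 and 359, were 34 and 16 without scaling, 0 and 1 with no filter, 17 and 1 in the gene body plus 5 kb, 174 and 155 in the gene body plus 50 kb, and 22 and 10 when each peak counted only for its nearest start. The lower count was 220 with scaling within the chromosome. Leaving out a library gave 160 to 290 higher and 144 to 278 lower. In covered length, 1322 and 1623 became 318 and 481 without scaling, 473 and 637 with no filter, 214 and 106 in the gene body plus 5 kb, and 861 and 936 in the gene body plus 50 kb. The lower count was 1011 with scaling within the chromosome. Leaving out a library gave 744 to 1018 higher and 905 to 1477 lower.

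With the replicate block, 582 genes were lower in number of peaks, and in covered length Itgb4 became lower past the threshold (adjusted p = 0.041, limma), so that 1 member was lower. The block changed no other call of a member. The labels do not say whether the replicate numbers pair the libraries. In number of peaks, deviations from the tissue means correlated by 0.018, 0.05 and -0.009 across genes for the numbers 1, 2 and 3. These values showed no pairing, but they cannot tell how the tissue was collected.

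Small differences changed sign, none of them past the threshold. In number of peaks these were Itga6 in the gene body plus 5 kb (-0.0609), Itgb4 without scaling (-0.0232) and with peaks of at least 300 bp (-0.1094), Itga3 (-0.0475), Lama3 (-0.2563) and Lamb3 (-0.1731) when each peak counted only for its nearest start, Lama3 (-0.0005), Lamb3 (-0.0288) and Plec (-0.0197) without scaling, and Lamb3 with scaling within the chromosome (-0.0103). In covered length they were Itga3 with scaling within the chromosome (0.0534) and in the gene body plus 5 kb (0.04), and Plec without scaling (-0.1065). Leaving out a library gave -0.0154 to 0.0903 for Itgb4, -0.05 to 0.1279 for Lama3 and -0.0138 to 0.0742 for Lamb3 in number of peaks, and -0.0518 to 0.0473 for Plec in covered length. The cause was not tested.

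The members' 17 epithelium-only and 9 mesenchyme-only regions became 56 and 49 with at least 2 libraries of a tissue and none of the other (10.4% and 9.09%, against 10.5% and 11.4% of all kept regions), and 39 and 23 with all 3 of a tissue and at most 1 of the other (7.24% and 4.27%, against 5.67% and 5.98%). Over the genome, epithelium-only regions were thus the more frequent kind by the strict rule and the less frequent by either looser one. With peaks of at least 300 bp, the mesenchyme-only count was 4 (1.08%, against 2.53% of all kept regions). The epithelium-only count was then 17 (4.61%, against 3.84%). Leaving out a library, which loosens the rule for both tissues, gave 20 to 37 and 11 to 25. These were 4.18% to 7.24% and 2.2% to 4.83% of the members' kept regions. Over the genome the shares were 4.15% to 6.75% and 3.39% to 6.5%. With a peak within 500 bp of the start, 1 member start, the most 3′ start of Dst, was found in epithelium alone. With exactly 1 peak in each library, 32 regions of the genome were wider and 4 narrower in epithelium, none of them in a member window.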
